A study of Mus musculus with 10 samples.

Results

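Microglia sorted from mouse brain slices after 1 day in culture were compared with microglia sorted directly from adult mouse brain, to describe the early response to slicing. The comparison rests on 4 of the 10 single-cell libraries of the series: 2 slice 1 day libraries and 2 adult libraries. A cell was kept if at most 5% of its unique molecular identifiers (UMIs, counted RNA molecules) were mitochondrial, at least 400 genes were detected and it held at most 30000 UMIs. This left 8858 of the 19059 kept cells of the series, 1532 in the slice 1 day libraries and 7326 in the adult libraries. The counts of all kept cells were summed per library, and the library was the unit of every test.

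All 4 libraries came from C57BL/6 mice, carried no transgene or treatment according to the labels, and were made with the 10X Genomics 3' v2 kit. Adult microglia were isolated without culture from the brains of adult mice. Slice microglia came from coronal slices of neonatal pups, cut within the first days after birth with the cerebellum removed, and cultured for about 1 day on membrane inserts in medium with horse serum; several slices could be pooled for 1 isolation. Both tissues were dissociated cold, separated on Percoll and sorted as live CD11b high, CD45 intermediate cells. The slice cells therefore differ from the adult cells in donor age, in slicing and in culture, and these cannot be told apart here. No freshly isolated neonatal microglia are among the libraries. The series gives 2 biological replicates per group without saying what each replicate was. The p-values therefore measure the spread between libraries, estimated in 1 model of all 10 libraries of the series.

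Microglia are the resident macrophages of the brain. They arise early in development, depend on signalling through the Csf1r receptor, and take on an adult programme of sensing genes under the influence of transforming growth factor beta from their surroundings. Tissue injury is known to make them withdraw this programme and to release chemokines, which draw in blood leukocytes.

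Total UMIs were 3661690 and 9539163 in the slice 1 day libraries and 12388843 and 6798474 in the adult libraries, with a median per cell of 6452.5 and 8335 UMIs in slice cells against 3257 and 1858 in adult cells. Libraries of the comparison shared between 1 and 20 cell barcodes with one another. Adult replicate 1 carries another study label than the other 3 libraries. Levels below are in CPM, the UMIs of a gene scaled to a common library total after trimmed mean (TMM) normalization, and are given in the order adult replicate 1, adult replicate 2, slice 1 day replicate 1, slice 1 day replicate 2. Levels were not divided by transcript length, so they are compared between libraries and not between genes. A gene was called at an adjusted p below 0.05 and a fold change above 1.5.

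The sorted slice cells held leukocytes other than microglia. Neutrophil genes made up 1.04% and 3.19% of all UMIs in the slice libraries and 0.0211% and 0.0178% in the adult libraries. S100a8, a calcium-binding protein stored in neutrophils, was at 4.1, 0.129, 4884 and 11111 CPM. A set of cells, 68 of 518 and 113 of 1014, had more than 2% of their UMIs from the neutrophil list. S100a8, a member of that list, was at 100942 and 117244 CPM in these cells, a level that the limit itself favours. No adult cell passed that limit. Levels given in the neutrophil-marked cells or in the remaining cells are UMIs scaled to the total of those cells without TMM factors, while levels given without the marked cells carry TMM factors. A further 29 and 41 cells had more than 0.2% of UMIs from a monocyte list, 23 and 32 had more than 0.4% from a list of macrophages at the borders of the brain, and 2 and 0 had more than 1% from haemoglobin genes. Together these marked cells were 122 of 518 and 186 of 1014 cells, and 5 of 3799 and 2 of 3527 in the adult libraries.

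Neutrophil RNA was also found outside the marked cells. UMIs of at least 3 neutrophil genes were present in 330 of 518 and in all 1014 slice cells, against 0 of 7326 adult cells, and S100a8 was still at 366 and 1969 CPM in the remaining 396 and 828 slice cells. The largest rises over all genes were of this kind. BC100530, Stfa1, Gm5483, Retnlg, 2010005H15Rik, Stfa2l1, Stfa2, Stfa3, Ltf and Ifitm6 were the 10 largest, and none had an adult UMI. Retnlg, for example, was at 306 and 871 CPM over all kept slice cells and at 25.2 and 195 CPM without the marked cells. The stefin A genes (Stfa) are closely related copies, so their separate values are uncertain. The slice libraries differed in this group. Ltf, a granule protein of immature neutrophils, was at 0.262 and 368 CPM, and its call was lost without slice 1 day replicate 2 without either adult library and with the study label as a covariate. The border macrophage list had 8 of 12 members higher and 0 lower, the monocyte list 13 of 14 higher and the neutrophil list 15 of 16 higher, with Csf3r, which adult microglia also express, lower. All results below were computed over all kept cells, and again without the marked cells of the slice 1 day and adult libraries. This alternative was chosen after seeing the data.

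**Figure D1:**
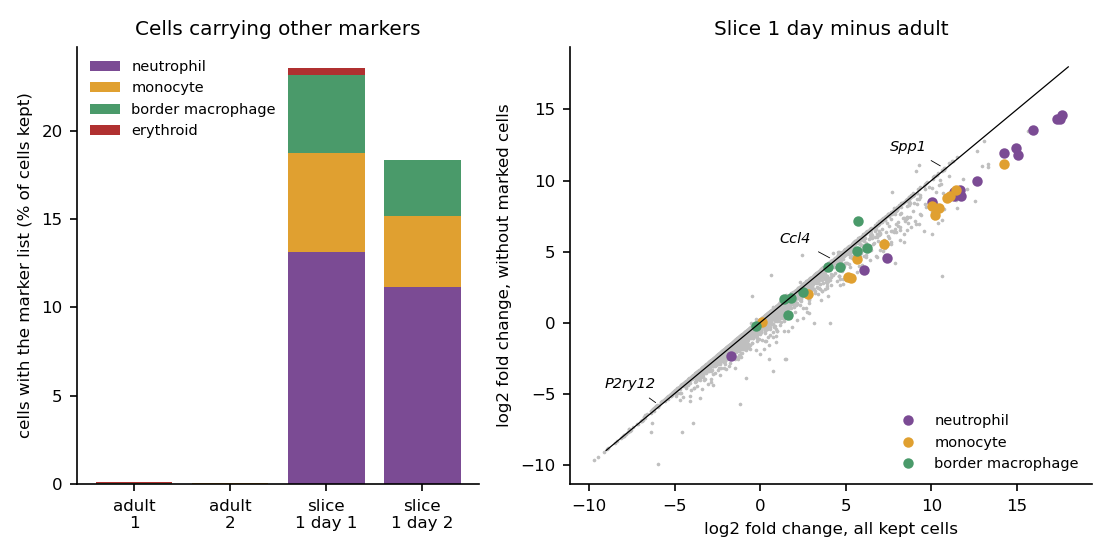
Left, cells passing the marker limits as stacked bars, in percent of the cells kept in each of the 4 libraries. Right, the log2 fold change of each gene over all kept cells (x axis) against the same without the marked cells (y axis), with the line of equality. Most genes lie near the line, while most neutrophil and monocyte genes lie below it but above 0.

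A large share of the genes separated the groups. Of 12157 genes tested, 3023 were called higher in slice 1 day microglia (24.9%) and 3081 lower (25.3%). Without the marked cells 3013 of 12040 genes were higher (25.0%) and 3048 lower (25.3%), and 5729 of the 6104 calls were kept. The median log2 fold change over all genes tested was -0.06. A list is therefore read against a background in which about 1 gene in 4 is called in each direction. Both slice libraries lay above both adult libraries in 4674 of the 12157 genes and below both in 5121, so such separation is common.

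The genes that define adult microglia fell almost without exception. Of the 40 homeostatic genes, 38 were lower, 0 higher and 2 (Tyrobp and Itgam) were not called, with a median log2 fold change of -2.98. P2ry12, the purinergic receptor that steers microglial processes to damage, was at 6486, 7398, 155 and 77 CPM. Both slice libraries lay far below both adult libraries, a log2 difference of -5.91 (SE 0.35, adjusted p = 1.44e-06). Tmem119, a membrane protein that marks resident microglia, was at 2661, 2668, 100 and 44.8 CPM (log2 difference -5.21, SE 0.45, adjusted p = 9.62e-06), and its difference was -5.89 without slice 1 day replicate 1. Selplg, a selectin ligand, went from 4852 and 4563 to 217 and 92.9, and Gpr34, a lysophospholipid receptor, from 2629 and 2794 to 191 and 154. Upk1b, at 133, 155, 2.1 and 0.103, and the fructose transporter Slc2a5, at 689, 608, 16.3 and 2.68, were the largest falls among all genes with an average log2 level of at least 5.

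Other microglial genes fell less. Cx3cr1, the fractalkine receptor, was at 2262, 1958, 480 and 498 CPM, a 4.32-fold difference. Csf1r, the receptor on which microglial survival depends, was at 3459, 3180, 645 and 492, a 5.84-fold difference. The complement component C1qa was at 11046, 9251, 2990 and 2719, a 3.55-fold difference. Of 16 markers used to check the label of the cells, 13 were lower, and Itgam (CD11b), Ptprc (CD45) and Tyrobp were not called. The list as a whole held 6.74% and 6.59% of UMIs in the adult libraries and 1.73% and 1.54% in the slice libraries, and without the marked cells 1.77% and 1.62%. The cells of the slice libraries thus kept microglial transcripts, at lower levels than the adult cells, and all 13 calls were kept without the marked cells.

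Transcription factors of microglial identity split. Sall1, which is nearly restricted to microglia among macrophages, was at 128, 108, 15.2 and 12.1 CPM (log2 difference -3.15, SE 0.24, adjusted p = 4.45e-06). Mef2c, Mef2a, Maf, Irf8 and Ikzf1 were also lower. Spi1, which encodes the myeloid master regulator PU.1, was at 592, 600, 583 and 553 and was not called. In all, 13 of 21 factors were lower and 2 higher. In the transforming growth factor beta list 11 of 19 tested members were lower and 0 higher, among them the ligand Tgfb1 at 540, 478, 264 and 223, its receptor Tgfbr1 at 637, 666, 87.8 and 58.9, and the feedback inhibitor Smad7 at 86.1, 59.4, 21.2 and 24.8 CPM. All of the named falls in these lists were called again without the marked cells.

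**Figure D2:**
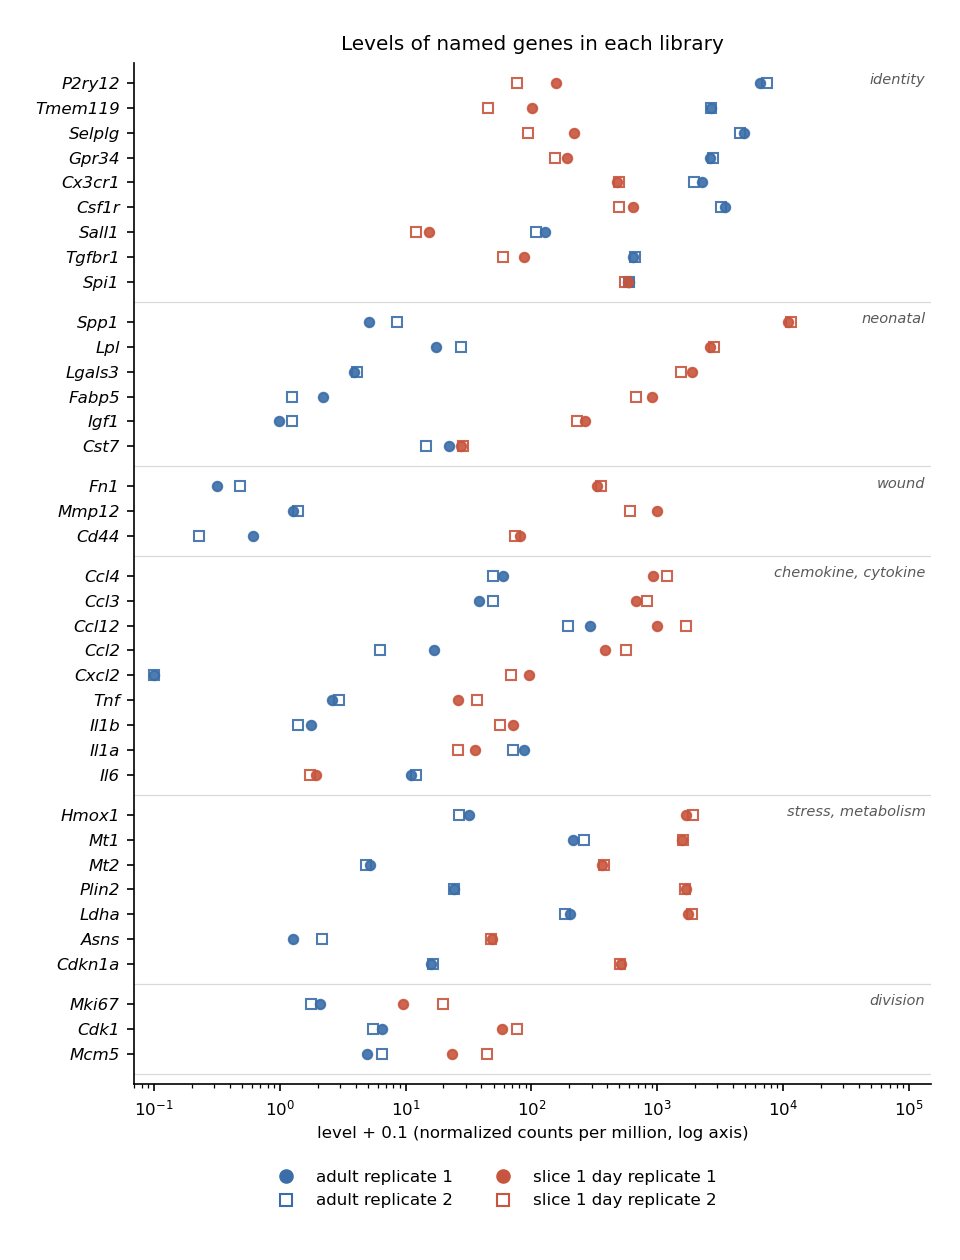
Level of 37 named genes in each of the 4 libraries, as CPM after normalization plus 0.1 on a log axis. Blue marks are adult and red marks slice 1 day libraries, filled circles replicate 1 and open squares replicate 2. For identity genes other than Spi1 the red marks lie left of the blue ones, and for most other genes right of them, with Il1a and Il6 as exceptions.

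A second programme, that of microglia in the first week after birth and in damaged tissue, was high. Of 32 tested genes of this list 27 were higher and 3 (Cd9, Cd68 and Cd34) lower, with a median log2 fold change of 3.59. Spp1, which encodes the secreted matrix protein osteopontin, rose from 5.05 and 8.37 to 10974 and 11538 CPM (log2 difference 10.7, SE 0.71, adjusted p = 2.09e-06). Lpl, the lipoprotein lipase, went from 17.3 and 27.3 to 2645 and 2795. Lgals3, the lectin galectin 3, went from 3.81 and 3.99 to 1874 and 1546. The fatty acid binding protein Fabp5, at 2.12, 1.16, 906 and 672, and the growth factor Igf1, at 0.879, 1.16, 264 and 228, rose in the same way. In each of these 5 genes both slice libraries lay above both adult libraries, as in 4674 of all 12157 genes tested. All 5 were called with and without the marked cells. Cst7, a cystatin associated with microglia near amyloid, was an exception at 21.9, 14.3, 27.5 and 28.3 (adjusted p = 0.131). It was called higher under 4 alternatives, among them no filter on low counts and the 4 libraries alone. The neonatal age of the slice donors moves with this list, and its part in the result was not tested.

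Genes of wound repair and matrix turnover were mostly higher. Of 28 tested members 21 were higher and 1 lower (Timp2), and the median log2 fold change was 4.45. Fn1, which encodes fibronectin, was at 0.22, 0.386, 329 and 355 CPM, a 1173-fold difference (log2 10.2, SE 0.59, adjusted p = 1.27e-06). Both slice libraries lay far above both adult libraries. Mmp12, the macrophage elastase, was at 1.17, 1.29, 985 and 612. Cd44, a receptor for hyaluronan, was at 0.513, 0.129, 81 and 73.7. Without the marked cells Fn1 was at 359 and 376 and Cd44 at 59.8 and 59.6 in the slice libraries, both called. Cd44 was higher in the neutrophil-marked cells, at 320 and 175 CPM, than in the remaining cells, at 61.9 and 61.1. Fn1 was at 46.6 and 97.3 CPM in the neutrophil-marked cells and at 371 and 386 in the remaining cells. Chil3 was at 6.29 and 183 in the slice libraries and Mmp9 and Slpi, which neutrophils store or secrete, at 97.8 and 96, and at 61.6 and 88.2, with no UMI of the 3 genes in the adult libraries. The call of Chil3 was lost without adult replicate 1 or slice 1 day replicate 2.

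The share of cells with a UMI of a gene depends on depth, so cells were first thinned. With each cell thinned to 1000 UMIs, a UMI of Fn1 was found in 19.4% of 396 and 25.1% of 828 remaining slice cells (exact 95% intervals 15.7 to 23.7% and 22.2 to 28.2%). The neutrophil-marked cells of the same libraries, taken here as a background that includes free RNA, had one in 4.41% of 68 and 12.4% of 113 cells. In adult cells a UMI of Fn1 was seen in 1 of 3728 and 2 of 3321 thinned cells. Cd44 was found in 4.55% and 6.04% of remaining slice cells against 26.5% and 17.7% of neutrophil-marked cells. Ccl4 was found in 28.8% and 38.9% of remaining slice cells against 16.2% and 24.8% of neutrophil-marked cells. For Spp1 the shares were 76.0% and 94.8%, but 55.9% and 89.4% of neutrophil-marked cells had a UMI too, so the share cannot be read as the share of cells expressing the gene. P2ry12 was found in 99.2% and 99.7% of adult cells and in 14.4% and 8.21% of remaining slice cells, against 10.3% and 3.54% of neutrophil-marked cells. Its level was 173 and 84.7 CPM in the remaining and 87.4 and 29.8 CPM in the neutrophil-marked cells. C1qa was found in 79.3% and 86.2% of remaining slice cells against 22.1% and 44.2% of neutrophil-marked cells. Thinning left out 66 and 204 adult cells and no slice cell of these sets. Without thinning, at median depths of 7285 and 9273.5 UMIs per cell, Fn1 was seen in 52.5% and 71.5% of remaining slice cells, and in 10.3% and 33.6% of neutrophil-marked cells at 2224 and 5016 UMIs. The intervals cover counting error only.

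Chemokines rose broadly, and cytokines did so in part. Of 12 CC chemokines tested 10 were higher and 1 (Ccl27a) lower, and without the marked cells 9 were higher and 0 lower. Ccl3 and Ccl4, chemokines made by activated microglia, were at 38.2, 49.2, 681 and 831 and at 59.8, 49.1, 916 and 1200 CPM. The fold differences were 17.4 (log2 4.12, SE 0.20, adjusted p = 4.55e-07) and 19.4 (log2 4.28, SE 0.49, adjusted p = 5.46e-05). Ccl2, Ccl7 and Ccl12, ligands of the monocyte receptor Ccr2, were at 16.7, 6.18, 383 and 567, at 6.37, 0.773, 92.5 and 123, and at 290, 194, 997 and 1677. These 5 genes were called again without the marked cells. Among CXC chemokines 6 of 8 tested were higher, and 5 of 7 without the marked cells. Cxcl2, which attracts neutrophils, had no adult UMI and 95.4 and 68.5 CPM in the slice libraries, at least 543-fold higher over the pooled libraries of each group, with 3 UMIs as the limit for the adult libraries. Cxcl14 went from 0.293 and 0 to 145 and 171. Cxcl10, an interferon-induced chemokine, was at 35.6, 1.16, 46.9 and 37.8 and was not called. Ccl5 was at 69, 2.19, 465 and 244. Its call was lost under DESeq2, without either slice library and without adult replicate 2. Its fold moved by more than 1.5 times with the study label as covariate and with the replicate block. In the fit without adult replicate 2 the log2 difference of 3.28 went to 2.36. Without adult replicate 1 that difference was 7.37.

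Of 27 cytokines tested, 11 were higher and 11 lower. Tnf, the tumour necrosis factor, was at 2.49, 2.83, 25.9 and 37 CPM, a 12.1-fold difference. Il1b was at 1.68, 1.29, 71.8 and 56.3 and its antagonist Il1rn at 0.513, 0.902, 46.4 and 27.1. Il1b is also made by neutrophils, and it stood at 687 and 188 CPM in the neutrophil-marked cells. Without the marked cells it was at 39.5 and 40.7 in the slice libraries, which brought the fold difference from 41.5 to 26.2 and kept the call. 4 further interleukins fell. Il1a, the second interleukin 1, was at 86.9, 71.1, 35.4 and 26.1, Il6 at 10.8, 12, 1.83 and 1.65, Il18 at 65.6, 52.3, 11.8 and 11.4, and Il16 at 150, 149, 23.9 and 21. The NF-kB feedback list was divided, with 14 of 32 higher and 8 lower. Its members Sod2, at 51.1, 47.9, 201 and 219, and Nfkbiz rose, Cd83 and Nfkb1 fell, and Nfkbia, at 154, 146, 216 and 204, and Tnfaip3, at 5.27, 5.8, 7.86 and 5.36, were not called. Of 17 inflammasome and interleukin 1 signalling genes tested only 4 were called, 2 in each direction, and Nlrp3 and Casp1 were not.

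Receptors showed a mixed pattern. Among chemokine and chemoattractant receptors 9 of 17 tested were higher and 5 lower. C5ar1 and C3ar1, receptors for complement fragments, rose from 171 and 279 to 725 and 732 and from 236 and 257 to 710 and 647. The scavenger receptors Msr1, at 1.03, 0.773, 284 and 315, and Cd36, at 0.366, 0.258, 181 and 190, rose (log2 differences 8.32 and 9.12). Without the marked cells Cd36 was at 0.0733, 0.129, 159 and 184 (log2 difference 10.70). Mertk and Trem2, receptors for dying cells and lipids, fell from 151 and 120 to 27.3 and 18.8 and from 3229 and 2588 to 918 and 827. The list of scavenger and phagocytic receptors had 11 of 31 members in each direction. Of 19 Toll-like receptor genes 8 were lower and 1, the co-receptor Cd14, higher. Purinergic genes had 11 of 19 lower and 5 higher. Entpd1, the ectonucleotidase CD39, was at 203, 167, 16 and 7.32, P2ry13 at 1060, 971, 52.4 and 43.5, and P2rx4, at 111, 115, 136 and 109, was not called. Of 14 integrin genes 5 were higher and 6 lower, with Itgb5 at 867, 1378, 254 and 195.

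Several stress genes rose, while the lists they belong to moved to different degrees. In the metallothionein and zinc list 3 of 8 tested members were higher and 1 lower, with a median log2 fold change of 0.33. Mt1 and Mt2, the metal-binding metallothioneins, were at 215, 259, 1566 and 1603 and at 5.13, 4.77, 361 and 374 CPM (log2 differences 2.74, SE 0.22, and 6.21, SE 0.68, both called), while the zinc exporter Slc30a1, at 5.42, 4.12, 6.29 and 5.87, was not called. Of 26 targets of the oxidant sensor NRF2, 19 were higher and 1 (Nfe2l2, which encodes NRF2 itself) lower. Hmox1, the haem oxygenase, was at 31.7, 26.3, 1693 and 1936, a 62.4-fold difference (log2 5.96, SE 0.37, adjusted p = 1.70e-06). In the iron list 7 of 16 tested were higher and 2 lower. The ferritin chains Fth1 and Ftl1 went from 2939 and 2596 to 11339 and 11290 and from 3122 and 3689 to 18969 and 17335, and the iron exporter Slc40a1 fell from 150 and 164 to 33.8 and 25.4. Slc7a11, the cystine transporter that both NRF2 and ATF4 control, was at 1.61, 0.773, 31.7 and 33.5.

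The list of the unfolded protein response and of targets of the factor ATF4 had 18 of 38 tested members higher and 4 lower. Asns, the asparagine synthetase, was at 1.17, 2.06, 48.5 and 47.2 CPM, Psat1, of serine synthesis, at 11.9, 12.1, 105 and 134, and Trib3 at 0.293, 1.16, 56.6 and 27.7. The chaperone Hspa5 was at 688, 848, 1133 and 1229, a call lost under 8 alternatives, and Herpud1 and Dnajb9 fell. To show the sequence on which such genes are read, the 250 bases before the start of 3 members are given from RefSeq (GRCm38.p6), 5′ to 3′ on the gene's strand, at chr3:50443614-50443863 (minus strand) for Slc7a11, chr6:7693210-7693459 (minus strand) for Asns and chr8:94172368-94172617 (plus strand) for Mt2. Capitals mark the letters TGATGNAA of the C/EBP-ATF element in Slc7a11 and Asns, and TGCACNC or TGCGCNC of the metal response element in Mt2, on either strand.
Slc7a11: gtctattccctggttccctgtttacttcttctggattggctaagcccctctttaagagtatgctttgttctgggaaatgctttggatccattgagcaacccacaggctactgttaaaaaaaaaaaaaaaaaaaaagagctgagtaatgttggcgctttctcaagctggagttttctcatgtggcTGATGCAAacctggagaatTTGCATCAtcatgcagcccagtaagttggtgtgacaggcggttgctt
Asns: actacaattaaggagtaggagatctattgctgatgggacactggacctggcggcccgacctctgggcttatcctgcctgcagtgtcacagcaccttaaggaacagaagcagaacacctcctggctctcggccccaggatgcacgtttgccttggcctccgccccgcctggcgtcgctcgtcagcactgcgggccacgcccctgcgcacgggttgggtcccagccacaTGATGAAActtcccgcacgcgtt
Mt2: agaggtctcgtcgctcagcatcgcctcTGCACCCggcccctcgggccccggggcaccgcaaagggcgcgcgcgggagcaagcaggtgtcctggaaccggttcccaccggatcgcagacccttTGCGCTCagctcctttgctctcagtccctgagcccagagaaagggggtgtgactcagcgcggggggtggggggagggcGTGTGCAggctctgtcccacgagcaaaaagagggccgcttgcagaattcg

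The C/EBP-ATF letters were found at 2 places before Slc7a11 and at 1 before Asns. They occur in 954 of 27025 mouse promoters of this length (3.53%) and in 7 of the 33 list members with a promoter sequence, of which Herpud1 fell and Nupr1 and Aars were not called. The metal response letters occur in 5749 promoters (21.3%), and in 5 of the 8 list members with a promoter sequence. There are 3 matches before Mt2 and 1 before Mt1, and also matches before Slc30a1 and Slc30a4, which were not called, and before Slc30a2, which was not tested. A match describes the letters in this window and is not evidence of binding.

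Of 27 heat shock genes 13 were higher and 2 lower, among the former Hsp90aa1 at 121, 85.9, 452 and 450 and Hspd1, a mitochondrial chaperone, at 65.6, 79, 244 and 269. The inducible Hspa1a was at 20.4, 0.258, 159 and 9.07 and was not called. Its level differed widely between the replicates of each group, and its log2 difference of 2.88 ran from -0.25 without slice 1 day replicate 1 to 8.30 without adult replicate 1. It was called under 8 alternatives, among them the study label as covariate (5.06) and the replicate block (2.86). Among 21 p53 targets tested 15 were higher and 2 lower, and without the marked cells 15 and 5. Cdkn1a, the cell cycle inhibitor p21, was at 15.8, 16.4, 519 and 509, a 32.0-fold difference (SE 0.41 on the log2 scale, adjusted p = 7.31e-06), and Plk2 went from 0.293 and 0.515 to 119 and 81.5. Immediate early genes, which respond within minutes, had 17 of 27 tested higher and 4 lower. Atf3 was at 11.4, 13.4, 168 and 149 and Fos at 16, 0.773, 86.2 and 64.6. Jun fell from 373 and 281 to 164 and 93.1, and Junb, at 339, 410, 386 and 350, and Egr1, at 13, 1.55, 14.2 and 16.2, were not called. Without adult replicate 1 Egr1 was called higher, its log2 difference going from 0.98 to 3.34.

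The cells also expressed the machinery of division. All 40 mitosis genes were higher, with a median log2 fold change of 3.00, and 30 of 40 DNA replication genes were higher and 0 lower. The levels were low. Mki67, the proliferation antigen, was at 1.98, 1.67, 9.44 and 19.8 CPM (log2 difference 3.04, SE 0.38, adjusted p = 9.45e-05, and 2.40 without slice 1 day replicate 2), and Cdk1, the mitotic kinase, at 6.45, 5.41, 58.2 and 77. Mcm5, of the replication helicase, was at 4.83, 6.44, 23.1 and 43.9. Ccnd1, at 77.1, 107, 73.1 and 88.4, was not called. The mitosis counts were the same without the marked cells, 40 of 40.

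Genes of glycolysis, of the response to low oxygen and of lipid handling were more often higher than lower. In the glycolysis and pentose phosphate list 22 of 33 tested were higher and 4 lower. Ldha, the lactate dehydrogenase subunit, was at 203, 184, 1757 and 1883 CPM (log2 difference 3.23, SE 0.18, adjusted p = 1.08e-06), Pkm, the pyruvate kinase, at 255, 276, 2836 and 2890, and Gapdh at 442, 347, 2987 and 3006. Of 31 hypoxia genes 21 were higher, with Egln3, an oxygen sensor, at 1.17, 0.644, 141 and 122 and Bnip3 at 38.5, 48.6, 318 and 288, while Hif1a itself, at 48.2, 43.3, 38.3 and 46.4, was not called. Plin2, which coats lipid droplets, went from 24.3 and 24 to 1687 and 1661, and Apoe, the main brain apolipoprotein, from 1027 and 670 to 7536 and 6352. Ch25h, the cholesterol 25-hydroxylase, was at 0.439, 0.515, 48 and 75.2. In the lipid list 22 of 34 were higher and 5 lower. The cholesterol synthesis list stood nearer the background, with 10 of 30 higher and 3 lower.

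Lists of protein synthesis, respiration and the proteasome had more members higher than lower. Of 82 cytosolic ribosomal protein genes 78 were higher and 0 lower, with a median log2 fold change of 1.57, and they held 7.0% and 5.6% of UMIs in the adult libraries and 15.9% and 15.8% in the slice libraries. Nuclear genes of oxidative phosphorylation had 59 of 82 higher (median 0.96), mitochondrial ribosomal proteins 42 of 77 (median 0.61), the proteasome 31 of 48 (median 0.85), translation factors 39 of 61 (median 0.92) and actin genes 23 of 37 (median 0.89). The actin-bundling protein Fscn1, at 693, 919, 64.2 and 51.1, and the translation brake Eef2k, at 84.7, 76.8, 16.3 and 14.5, fell. Galectins, annexins and S100 proteins had 19 of 25 higher and 3 lower, and the same counts without the marked cells. In the slice libraries Anxa1 went from 45.6 and 326 to 9.72 and 58.4 CPM and S100a6 from 186 and 292 to 53.7 and 112 CPM when those cells were left out. The nuclear RNA Malat1 fell from 36406 and 45190 to 16500 and 14616, and Neat1 rose from 30.1 and 33.7 to 308 and 227. Of 13 mitochondrially encoded genes 2 were called, both higher.

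Lysosomal genes were more often lower than higher, 26 against 8 of 50 tested. The protease Ctsd was at 10111, 8173, 3448 and 3002 CPM and Ctss at 9795, 9527, 2701 and 1632, while Ctsl, at 1321, 963, 3806 and 3703, and Ctsb, at 2885, 2974, 4844 and 5120, rose. Cst3, the cystatin that inhibits such proteases, fell from 63304 and 52692 to 3322 and 1882. Of 18 prostaglandin and leukotriene genes tested 6 were higher and 7 lower, and without the marked cells 7 and 9. Ptgs1, Ltc4s and Hpgds, enzymes of adult microglia, were all lower. Ptgs2, the inducible cyclooxygenase, had no adult UMI and 2.1 and 5.77 CPM. Alox5ap, at 431, 462, 346 and 308, was not called over all cells and was lower without the marked cells (log2 difference -1.45, adjusted p = 0.000838). In the NADPH oxidase list 6 of 11 tested were higher, Cybb at 6.15, 1.8, 104 and 149 among them, and without the marked cells 4 of 10 were higher and 2 lower.

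**Figure D3:**
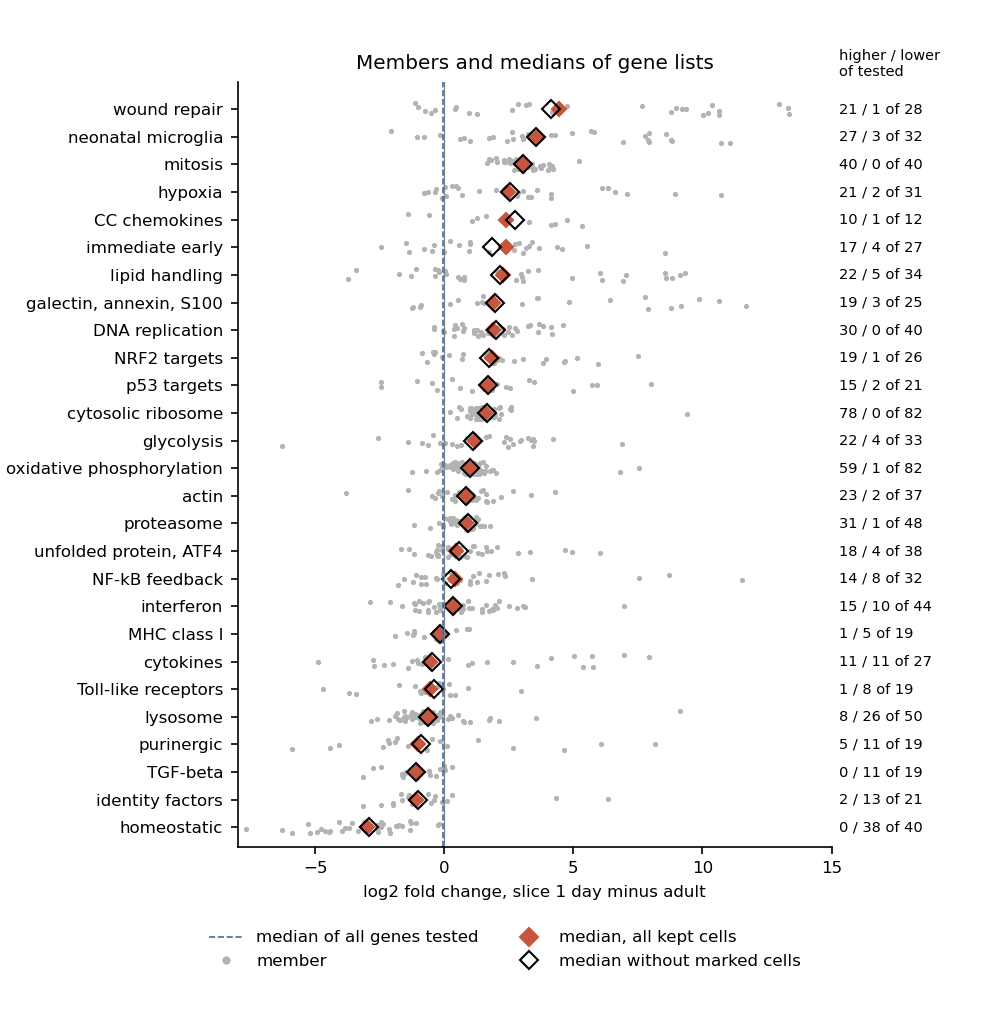
Log2 fold change, slice 1 day minus adult, of each tested member (grey dots) of 27 gene lists, with the list median over all kept cells (red) and without the marked cells (open). Numbers at the right count the members called higher and lower of those tested, and the dashed line is the median of all genes. Medians run from -2.98 for homeostatic genes to 4.45 for wound repair and in these 27 lists stay on the same side of 0 without the marked cells.

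Interferon and class I genes were called in both directions. Over all genes 24.9% were higher and 25.3% lower, and the share called lower was near that background in both lists. Of 44 interferon-stimulated genes tested 15 were higher and 10 lower, with a median log2 fold change of 0.34. Ifitm3 was at 52.1, 24.3, 347 and 286, Isg15 at 37.3, 14.6, 73.7 and 101, and Ifit3, at 37.1, 12.2, 18.3 and 21.4, was not called. For Ifit3 and Cxcl10 the adult libraries stood apart from each other. Without adult replicate 1, which leaves libraries of 1 study label, Ifit3 and Cxcl10 were called higher, with log2 differences of 0.76 and 5.21, and without adult replicate 2 Ifit3 was called lower (log2 difference -0.88). Of 19 class I genes 1 was higher and 5 lower, and B2m and H2-K1 were not called. Of 9 class II genes 4 were lower and 1 higher (median log2 fold change -1.21), and without the marked cells 5 were lower (median -1.53). H2-DMa, H2-DMb1, H2-Oa and H2-Ob fell, Cd74, the invariant chain, rose from 116 and 103 to 338 and 251, and H2-Aa, at 19.8, 13.1, 23.9 and 1.75, was not called except without slice 1 day replicate 1. The complement list had 9 of 19 higher and 6 lower.

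Lists of cells outside the myeloid line held small shares of UMIs. Astrocyte genes held 0.0189% and 0.0172% of UMIs in adult and 0.00396% and 0.00325% in slice libraries, and neuronal genes between 0.00622% and 0.00904% in all 4. In the neuronal list 7 of 11 tested members were higher and 0 lower, with and without the marked cells. In the astrocyte list 3 of 10 tested members were higher and 1 lower, with a median log2 fold change of 0.12. The member that fell was Slc1a3, a glutamate transporter, with 1858 and 1002 UMIs in the adult libraries against 20 and 12 in the slice libraries, or 136, 129, 5.24 and 1.24 CPM (log2 difference -5.68, and -6.73 and -4.60 without slice 1 day replicate 1 and 2). Fabp7, a fatty acid binding protein, rose from 0.439 and 0.129 to 3.15 and 4.74 CPM (log2 difference 3.64, and 4.92 without adult replicate 1). Gfap was at 0.0732, 0.129, 0.786 and 1.03 CPM and its call was lost without the marked cells and without any 1 of the 4 libraries. The neuronal transcripts Stmn2 and Tubb3 were at 1.31 and 1.85 and at 2.88 and 4.74 in the slice libraries against at most 0.258 in adult libraries, and the call of Tubb3 was lost without adult replicate 1 or slice 1 day replicate 2. Oligodendrocyte genes held 0.0136% and 0.0156% of UMIs in adult and 0.00713% and 0.00652% in slice libraries. Of 9 tested 3 were higher and 2 lower, and without the marked cells 4 and 2. Cnp, a myelin enzyme, fell, with 1030 and 653 UMIs in the adult libraries and 141 and 286 in the slice libraries (log2 difference -1.28), and its call was lost without slice 1 day replicate 2. Mbp, the myelin basic protein, was not called. Lymphoid, dendritic, endothelial and mural lists had at most 5 members tested each. The part of these RNAs in the results was not tested.

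To place the 1 day level among the other cultures, the same model was read against slices cultured for 3 weeks and against microglia from 3-week mixed glial cultures (in vitro). Against slice 3 weeks 12.8% of genes were higher and 13.9% lower at 1 day, and against in vitro 18.6% higher and 13.3% lower. With scaling by library size alone the in vitro counts went from 2256 higher and 1619 lower to 3014 and 1180. Msr1 was at 37 and 22.9 CPM after 3 weeks in slices and at 77.9 and 79.8 in vitro, so the level at 1 day was higher than in both (log2 differences 3.34 and 1.93, adjusted p = 5.48e-05 and 0.000107). Cxcl2, Il1b, Il1rn, Hmox1, Plin2, Ccl2 and Plk2 were likewise higher at 1 day than in both. These 7 genes and Msr1 were called in both comparisons without the marked cells of the slice 1 day libraries too. The log2 differences for Il1b were then 2.93 in place of 3.60 and 1.34 in place of 2.01. The other cultures kept all their cells there, although 1668 of 2417 and 1748 of 2682 in vitro cells passed the border macrophage limit. Ccl3 and Ccl4 were not called against slice 3 weeks, where they were at 870 and 732 and at 955 and 627, and were higher than in vitro. Cd36 was higher at 1 day than after 3 weeks, at 10.5 and 9.04, and was not called against in vitro, at 187 and 282.

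P2ry12 and Sall1 lay lower at 1 day than after 3 weeks. P2ry12 was at 978 and 818 in slice 3 weeks libraries and at 60 and 42.6 in vitro (log2 differences -2.96 and 1.17, both called). Sall1, at 49.2 and 59.9 after 3 weeks, was at 0.321 and 0.0842 in vitro, so that the 1 day level was above in vitro by 6.03 on the log2 scale. Apoe was lower at 1 day than in both, and stood at 27036 and 20517 after 3 weeks and at 73978 and 65392 in vitro. Cst7 was at 917 and 1669 and Ctsd at 25962 and 19600 after 3 weeks, both above the 1 day level. Mki67, at 35.8 and 40.2 after 3 weeks, was also higher then. Without the marked cells of 1 day, Cdk1, Mcm5 and Ccnd1 were not called against 3 weeks (log2 differences 0.26, 0.76 and 0.04). Shares of cells with UMIs of at least 3 mitosis genes were 21.6% and 48.8% at 1 day. After 3 weeks they were 24.5% and 12.3%, and such shares depend on depth. The slice 1 week libraries, with 148 and 61 cells, are shown in the plot of the 5 groups without a test. These comparisons share the slice 1 day libraries and are not independent of one another.

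**Figure D4:**
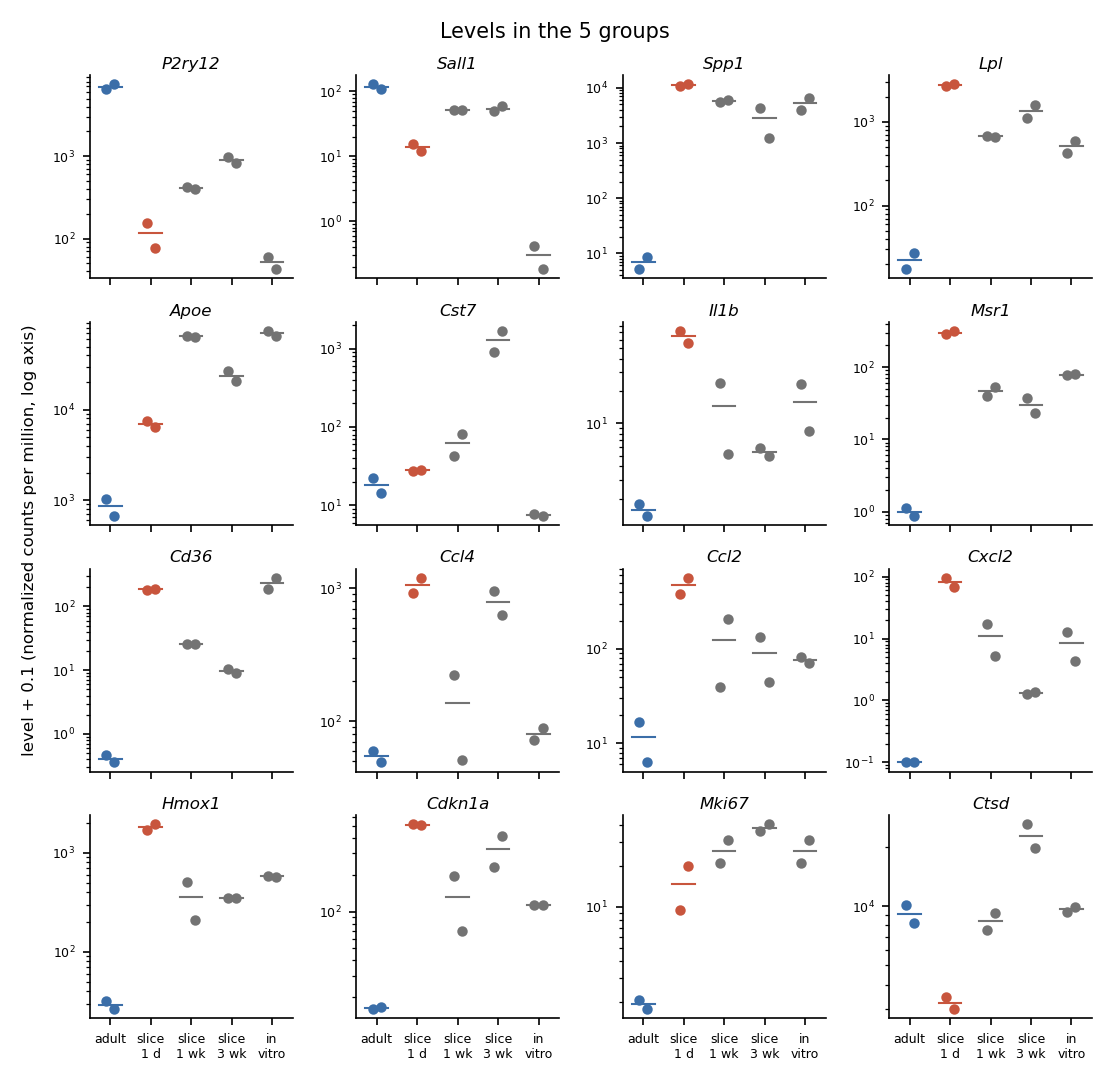
Levels of 16 named genes in the 2 libraries (dots) of each of the 5 groups, with the mean as a line, as CPM after normalization plus 0.1 on log axes. Il1b, Msr1, Cxcl2, Ccl2 and Hmox1 are highest at 1 day, while Ctsd is lowest there and P2ry12 and Sall1 lie between the in vitro and the longer slice cultures.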

How the data were processed

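Single-cell RNA-seq libraries (10X Genomics 3' v2) were analysed from the deposited matrices, which hold UMI counts per gene and cell as the authors' Cell Ranger runs gave them (version 1.3.0 and build mm10 in the submitters' processing notes), with no normalization. Barcodes were filtered as stated, which removed 120 of 8978 in the 4 libraries, 13 repeated symbols were summed, and counts were added per library. One edgeR 4.0.16 quasi-likelihood model (R 4.3.3; glmQLFit, glmQLFTest) was fitted to the 10 libraries in 5 groups, with TMM factors and filterByExpr at a minimum of 10 counts, which left 12157 of 18292 symbols. P-values were adjusted by Benjamini-Hochberg over all genes tested, and SE is the log2 fold change divided by the root of F. The biological coefficient of variation was 18.3%. Doublets were not removed.

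The members and lists were chosen with earlier results of these data known. Named genes were the key members of each list, up to 4 further called members largest in log2 fold change with a group mean of at least 50 CPM, and the 10 largest rises and falls over all genes with an average log2 level of at least 5. Cd9, Cd68, Cd34, Timp2, Ccl27a, Nfe2l2, Nupr1, Aars, H2-Ob, Tyrobp, Ptprc, Csf3r, Slc30a2 and Slc30a4 were named after their values were seen. The fit was tested on simulated data and repeated with DESeq2 1.42.0 and other settings. Between libraries of 1 group, 32.0% (adult) and 21.9% (slice 1 day) of genes differed beyond counting noise at p below 0.05, so that no library is a copy of another. Intervals are exact binomial and cover counting error only. Promoters are the first start listed per gene in RefSeq (GRCm38.p6). Some genes are not reported here.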

Additional observations from a re-analysis of the deposited data

How the results depend on the processing

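The counts of 3023 higher and 3081 lower genes stayed within 1.5 times under DESeq2, DESeq2 size factors, library size alone, no filter, the 4 libraries alone, the study label as covariate, all barcodes, and without cells carrying 3 mitosis genes. Scaling by library size alone shifted the median log2 fold change of all genes by -0.124. The labels do not say that replicate numbers mark shared animals, and same-numbered adult and slice 1 day libraries were not paired by their deviations (r = 0.0607). With the replicate block 2987 genes were higher and 2993 lower. Leaving out 1 library at a time gave 2466 to 2903 higher and 1940 to 2747 lower genes, the fewest lower without slice 1 day replicate 2. Counting also the fit without both the marked cells and adult replicate 1, this range was 784 to 1533 higher and 656 to 1599 lower against slice 3 weeks, and 1261 to 2291 higher and 958 to 1811 lower against in vitro. The lowest counts came without slice 1 day replicate 2 in each of these, and without slice 1 day replicate 1 there were 1108 lower genes against slice 3 weeks.

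Leaving out every cell with 3 genes of another cell type's list removed all cells of slice 1 day replicate 2 and of slice 1 week replicate 1, so that slice 1 day replicate 1 stood alone with 146 cells and its spread was taken from the other groups. It also left 47 of 2417 and 38 of 2682 in vitro cells. There 1331 genes were higher and 983 lower, against slice 3 weeks 108 and 85, and against in vitro 193 and 129. In that fit Ccr2 (-0.26), Mrc1 (-0.25) and Tubb3 (-3.04) turned to a log2 fold change below 0. These and further named genes lost their call there. In the other alternatives no called named gene turned to the opposite call. Of the 339 named genes, the number that lost a call was at most 6 under the alternatives that keep the 4 libraries and their cells, 14 without adult replicate 1, 8 without adult replicate 2, 7 and 20 without the slice 1 day replicates, 5 without the marked cells, and 22 without both the marked cells and adult replicate 1. With 2 libraries a group an exact permutation test of a single gene cannot reach p = 0.05.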
